A study of Mus musculus with 4 samples.

Results

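The genes described here are 10 components of the NF-kappa-B pathway: the Rel subunits Rela, Relb, Nfkb1 and Nfkb2, the inhibitor genes Nfkbia and Nfkbib, the nuclear regulators Nfkbiz and Bcl3, the feedback deubiquitinase gene Tnfaip3, and the kinase gene Ikbkb. They were chosen by gene symbol, with earlier results of the same arrays known. Of 22690 probe sets, 17 carried the symbol of a member, and these covered 9 of the 10 genes out of 12393 genes in all; Nfkb1 was not analysed here. RNA came from left ventricles of wild-type and IL-18 null mice (on C57BL/6 per the labels of the banded pool), each after sham surgery or after banding, a transaortic constriction that overloads the ventricle with pressure. According to its design text, the series asks what IL-18 does to gene expression in the resulting hypertrophy. Each of the 4 groups, named below wild-type sham, wild-type banded, null sham and null banded (null standing for the IL-18 null genotype), was 1 array of pooled RNA. The null sham pool held 5 mice, and the null banded pool 6 mice after 1 week of constriction. For the wild-type pools the series design gives only a range of 5 to 6 per group, and the labels state neither their strain nor their banding time, nor an age in any group. Since a group is 1 array, the differences come without replicates or errors, and no test was made. A difference is given as a fold or on the log2 scale, and was called when it was at least 2-fold. Values under a floor of 64 intensity units (log2 6) were set to the floor, so a fold against such an array is a bound, written as "at least"; a gene was counted in a comparison when 1 of the arrays compared reached the floor. In whole-ventricle RNA, fewer cells of a type and less RNA per cell cannot be told apart.

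NF-kappa-B is a family of dimeric transcription factors built from Rel proteins such as RelA, the main activating subunit. In resting cells inhibitor proteins, among them the products of Nfkbia and Nfkbib, hold the dimers in the cytoplasm. Receptors for tumour necrosis factor, IL-1, IL-18 and microbial products activate the kinase that Ikbkb helps to form, which marks the inhibitors for degradation and frees the dimers. Nfkbia, Nfkbiz, Bcl3, Nfkb2, Relb and Tnfaip3 are themselves known targets of NF-kappa-B, so that their transcripts are commonly used as a readout of the pathway, while Nfkbib and Ikbkb are not classed among its strongly induced targets. In the heart the pathway is active in both muscle and non-muscle cells during inflammation and overload.

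Start-site windows from RefSeq (build GRCm38.p6, 250 bases before to 50 after each start) were at hand for 6 of the 10 members, with 9 windows in all, and were searched on both strands for the kappa-B consensus, the 10-base element that NF-kappa-B dimers bind. A match was found in 6 of the 9 windows, belonging to 4 members (Nfkbia, Bcl3, Tnfaip3 and Nfkb2), and in 8.46% of all 32851 windows. Windows of a gene can overlap and are not independent. A match of Nfkb2 lay where its windows overlapped, so it was counted more than once. The stretch from 150 bases before to 15 bases after the start is shown for both members with a match that were highest on the null banded array (Nfkbia and Bcl3), and for comparison for Nfkbib and Rela, which had no match. Each reads 5′ to 3′ in the direction of the gene, with the match in capitals. The Nfkbia stretch lies at chr12:55492633-55492797 (- strand), that of Bcl3 at chr7:19822741-19822905 (- strand), that of Nfkbib at chr7:28766630-28766794 (- strand) and that of Rela at chr19:5637391-5637555 (+ strand).
Nfkbia: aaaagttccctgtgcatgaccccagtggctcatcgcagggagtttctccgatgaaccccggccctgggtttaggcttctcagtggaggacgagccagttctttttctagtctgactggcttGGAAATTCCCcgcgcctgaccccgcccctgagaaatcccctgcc
Bcl3: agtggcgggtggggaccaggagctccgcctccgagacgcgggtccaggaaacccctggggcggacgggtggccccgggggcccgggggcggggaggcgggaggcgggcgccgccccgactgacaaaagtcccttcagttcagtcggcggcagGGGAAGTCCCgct
Nfkbib: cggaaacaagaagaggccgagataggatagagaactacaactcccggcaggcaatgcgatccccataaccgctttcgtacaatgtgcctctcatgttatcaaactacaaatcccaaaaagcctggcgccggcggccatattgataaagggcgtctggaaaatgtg
Rela: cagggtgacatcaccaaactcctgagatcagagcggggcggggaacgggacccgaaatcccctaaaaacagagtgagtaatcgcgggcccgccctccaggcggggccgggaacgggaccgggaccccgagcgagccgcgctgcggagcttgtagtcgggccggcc
The Nfkbia match spans positions -29 to -20, counted from the start, and reads GGGAATTTCC on the opposite strand. The Bcl3 match lies after the start, at positions 3 to 12, and matches on both strands. Tnfaip3 had matches at -125 to -116 and at -12 to -3 in 1 of its windows. Nfkb2 had matches in every one of its windows, some of them overlapping, with those nearest the first start at -39 to -29 and -11 to -2. Matches are a description of these letters, and the arrays do not measure binding there.

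All 12 cardiomyocyte markers examined, Myh6 and Tnni3 among them, reached the floor on all 4 arrays, as the tissue label has it. Il18 itself lay between 7.4 and 9.1 intensity units on every array, below the floor, so the genotype labels could not be checked. The arrays differed in how much of their signal came from the 3′ ends of transcripts. The 3′ minus middle probe set of Gapdh, Actb and the bacterial control dap averaged 4.74 on the log2 scale on the wild-type sham array, 0.72 on wild-type banded, 3.37 on null sham and 3.01 on null banded. Across the 5158 genes that reached the floor anywhere, the wild-type sham array correlated least with the others (r from 0.703 to 0.833, against 0.900 to 0.938 among the other arrays; r across genes, which are not independent). The comparison of banding in null and that of genotype in banded hearts do not use the wild-type sham array, while the other comparisons do. Banding in null compared arrays with close 3′ averages, 3.37 and 3.01, but the single controls did not all match. Gapdh stood at 2.73 on null sham and 1.66 on null banded. Actb stood at 4.69 and 4.57, and dap at 2.69 and 2.81. Genotype in banded hearts compared arrays with unlike averages, 0.72 in wild type and 3.01 in null.

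Nfkbiz, which encodes the nuclear regulator IκBζ that acts with NF-kappa-B on a subset of its targets, gave 748.2 intensity units on wild-type sham, 92.5 on wild-type banded, 88.1 on null sham and 1145.4 on null banded. Wild-type sham and null banded were thus high, and the remaining arrays were low and close to each other. With banding it was 8.09-fold lower in wild type and 13.0-fold higher in null, or -3.02 and 3.70 on the log2 scale. Among sham hearts it was 8.49-fold lower in null than in wild type, and among banded hearts 12.4-fold higher. Of 4709 genes with a value in both banding comparisons, 44 (0.934%) were at least 2-fold lower in wild type and at least 2-fold higher in null, and Nfkbiz was one of them; 63 (1.34%) went the opposite way. Its difference of banding responses, null minus wild type, was 6.72 on the log2 scale and stood at rank 1 of 5158 genes from the highest, with bounds ranked at the floor. Its other probe set, which the annotation ties to the same accession, lay between 3.4 and 3.7 units on every array, below the floor, so the pattern of Nfkbiz rests on 1 probe set (1417483_at). If both probe sets are averaged, the gene falls below the floor in every group but null banded, where it is at the floor, and both banding calls end.

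**Figure D1:**
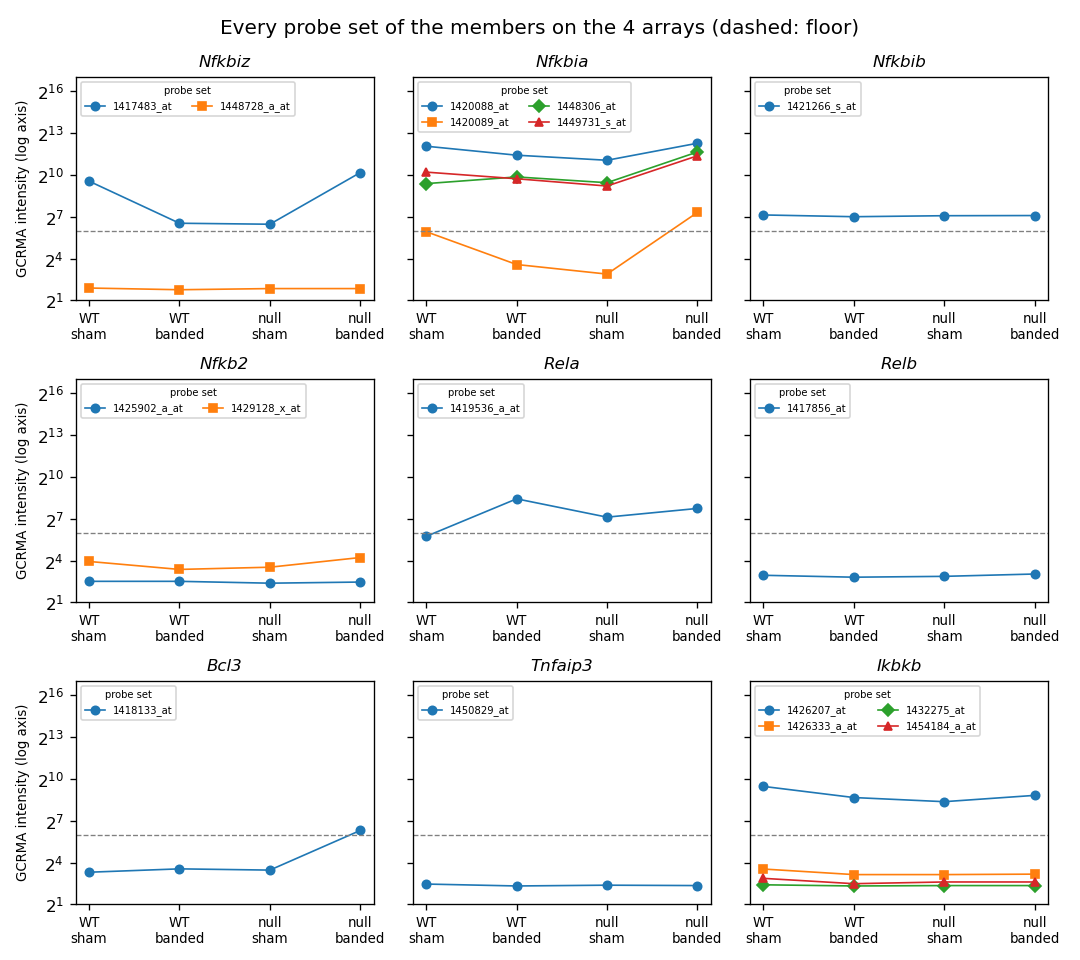
Intensity (log axis) of all 17 probe sets of the 9 members on the array, by group; each point is 1 array, lines join points of a probe set only to guide the eye, and the dashed line is the floor of 64 units. Nfkbiz is high in wild-type sham (748.2) and null banded (1145.4), all 4 probe sets of Nfkbia are highest in null banded, and 8 probe sets lie below the floor on every array.

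Nfkbia, which encodes IκBα, the main inhibitor resynthesised after activation, was read by 4 probe sets, and all 4 were highest on the null banded array. The brightest (1420088_at) gave 4247.4 on wild-type sham, 2721 on wild-type banded, 2114.2 on null sham and 4926.1 on null banded. On it wild-type sham and null banded were high, as for Nfkbiz, but the whole spread was much narrower. The probe set tied to the RefSeq transcript (1448306_at) gave 662.7, 923.6, 693.5 and 3188.4 in the same order. On this one null banded alone was high. The third, 1449731_s_at, gave 1173, 843.5, 588 and 2638.7, with null banded highest and wild-type sham next. The dimmest (1420089_at) gave 60.8, 11.9, 7.4 and 158.3, and reached the floor only in null banded.

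With banding in null, Nfkbia was higher by 2.33-fold on the brightest probe set, 4.60-fold on 1448306_at, 4.49-fold on 1449731_s_at and at least 2.47-fold on 1420089_at, so every probe set passed 2-fold. With Nfkbiz these made 5 of the 9 member probe sets with a value, beside 6.64% of all 6743 such probe sets at least 2-fold higher. The Nfkbia probe sets read the same gene on the same arrays, so this count is not one of separate genes. Since 1420089_at reached the floor only in null banded, it could only be higher there. In the wild-type banding comparison none of the 3 measured probe sets passed 2-fold: they stood at -0.64, 0.48 and -0.48 on the log2 scale (in the order 1420088_at, 1448306_at, 1449731_s_at), and disagreed in sign. Between banded hearts Nfkbia was higher in null on every probe set, by 1.81-fold, 3.45-fold, 3.13-fold and, for 1420089_at, at least 2.47-fold. Between sham hearts the brightest probe set was lower in null, at -1.01 on the log2 scale, barely past 2-fold, while 1449731_s_at stood at -0.996 and 1448306_at at 0.07. The sham difference therefore depended on the probe set, and the high null banded value did not.

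Nfkbib, which encodes the related inhibitor IκBβ, gave 139.7 on wild-type sham, 128 on wild-type banded, 134.5 on null sham and 135.6 on null banded. All 4 arrays lay close together, and no difference between 2 arrays was more than 1.09-fold. After quantile normalization its wild-type banding difference was -0.69 on the log2 scale, while the median of all genes moved from -0.08 to -0.42.

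Bcl3, which encodes a nuclear IκB-like protein that binds the p50 and p52 subunits, gave 9.9 on wild-type sham, 11.7 on wild-type banded, 11 on null sham and 78.8 on null banded. Only the last array reached the floor, and the first 3 values have no order. Bcl3 was at least 1.23-fold higher with banding in null, and likewise at least 1.23-fold higher in null than in wild type among banded hearts, neither of which is a call. With the floor at log2 5 the same bound was 1.30 on the log2 scale and past 2-fold.

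Rela, which encodes the activating subunit p65, was read by 1 probe set and gave 53.3 on wild-type sham, 343.6 on wild-type banded, 138.3 on null sham and 213.1 on null banded. Wild-type sham was lowest and just below the floor, and wild-type banded was highest. With banding Rela was higher in wild type by at least 5.37-fold, and in null by 1.54-fold. It was at least 2.16-fold higher in null than in wild type among sham hearts, and 1.61-fold lower among banded hearts. With the floor at log2 7 the sham difference was 0.11 and the difference of responses -0.80 on the log2 scale, and both calls ended. The middle probe set of Gapdh, a glycolytic enzyme used as a quality control, put the arrays in the same order as Rela, at 83.6 in wild-type sham, 1619.6 in null sham, 3885.1 in null banded and 17062.5 in wild-type banded. The part of that difference between the arrays in the Rela values was not tested.

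Ikbkb, which encodes the kinase subunit IKKβ that phosphorylates the inhibitors, was measured by 1 of its 4 probe sets, at 703.7 on wild-type sham, 404.7 on wild-type banded, 329.4 on null sham and 450.4 on null banded. Wild-type sham was high and the other arrays were closer together. Banding differences were -0.80 in wild type and 0.45 in null on the log2 scale, neither a call. Among sham hearts Ikbkb was 2.14-fold lower in null, and among banded hearts the difference was 0.15. After cyclic loess its sham difference was -0.99 and its difference of responses 0.97 on the log2 scale, both just under 2-fold. Its other 3 probe sets lay between 5 and 11.6 units on every array.

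Relb and Nfkb2, which form the dimer of the alternative pathway, and Tnfaip3, which encodes the ubiquitin-editing inhibitor A20, were below the floor on all 4 arrays. Relb lay between 7 and 8.2 units, Tnfaip3 between 5 and 5.5, and the Nfkb2 probe sets between 5.2 and 5.7 and between 10.3 and 18.6. A value under the floor carries no order between arrays, so no direction can be given for these 3 members.

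**Figure D2:**
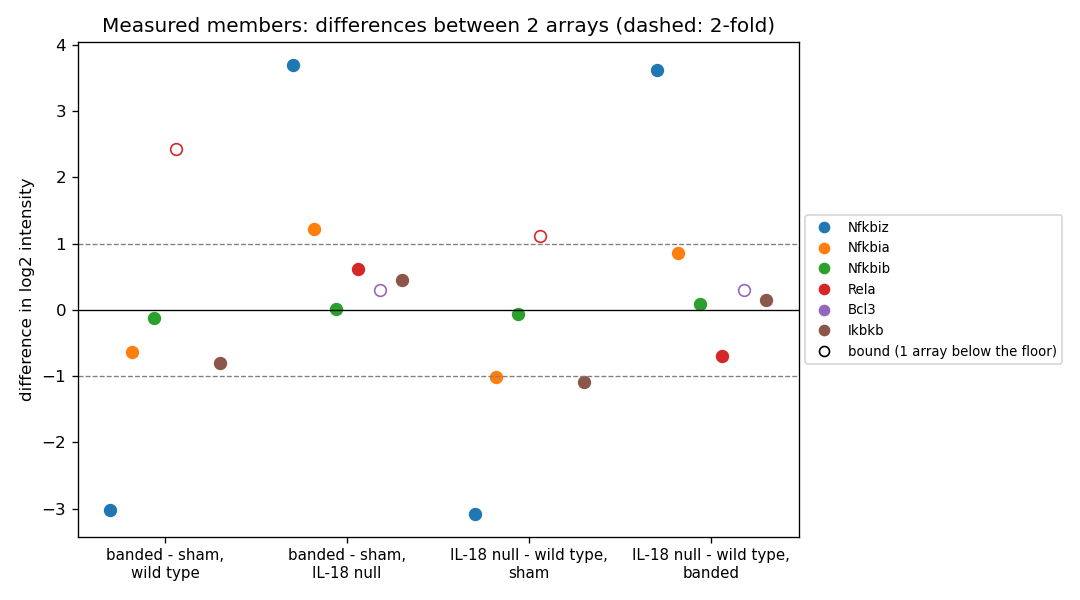
Difference in log2 intensity between 2 arrays for the 6 measured members, 1 probe set a gene, in 4 comparisons; open points are bounds and dashed lines mark 2-fold. Nfkbiz lies at -3.02 for banding in wild type and at 3.70 for banding in null, while Nfkbib stays near 0 in all 4.

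Counted by gene, 2 of 5 measured members were called for banding in wild type, Rela higher and Nfkbiz lower, where 34.6% of all 5040 measured genes were called (21.7% higher and 12.8% lower). For banding in null 2 of 6 were called, Nfkbiz and Nfkbia, both higher, where 9.51% of 4827 genes were called (6.98% higher and 2.53% lower). For genotype in sham hearts 4 of 5 were called, Rela higher and Nfkbiz, Nfkbia and Ikbkb lower in null, where 22.6% of 4851 genes were called (16.3% higher and 6.29% lower). For genotype in banded hearts 1 of 6 was called, Nfkbiz, higher, where 13.4% of 4947 genes were (5.7% higher and 7.74% lower). The members' median log2 difference was -0.64, 0.54, -1.01 and 0.23 in these comparisons, against -0.08, 0.08, -0.07 and 0.11 over all genes. Bounds of fixed sign enter these counts and medians. Rela, below the floor in wild-type sham, could only be higher in both comparisons with that array. Bcl3, above the floor only in null banded, could only be higher in both comparisons with null banded. The difference of banding responses passed 2-fold for Nfkbiz, Nfkbia and Ikbkb upward and Rela downward, 4 of 6, where 41.4% of 5158 genes passed (20.4% upward and 21.0% downward). Because each array enters several comparisons and the members were chosen with these values known, the shares are a description. The split of all genes for banding in wild type was 1096 higher and 647 lower, and became 852 and 1272 with quantile normalization or 1238 and 426 with cyclic loess. For genotype in sham it was 668 and 637 after quantile normalization, against 789 and 305. Between banded hearts it was 282 and 383, and became 319 and 345 with quantile normalization or 195 and 474 with cyclic loess. For banding in null it was 262 and 153 after quantile normalization, against 337 and 122.

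Of 42 known target genes listed, 41 were on the array, and 14 were at or above the floor on both null arrays. Of these 14, banding in null gave 7 past 2-fold upward and 0 downward (median 1.08). Over all 4827 genes with a value on either null array, a wider set that includes bounds, 6.98% were higher and the median was 0.08. Another 10 targets were higher as bounds, which makes 17 of 25 with any value (median 2.01). A target that reached the floor only through the banded array had to be higher there, so these 10 are a description of levels, and 16 listed targets, Tnf, Sele and Nos2 among them, were below the floor on all arrays. For banding in wild type 16 targets had a value, 4 higher and 4 lower, with a median of 0.04. Of all genes 21.7% were higher and 12.8% lower in that comparison. Among the 11 targets at or above the floor on both wild-type arrays, 2 were higher and 1 lower (median 0.07).

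The target with the largest banding difference in null, a bound, was Ptx3, which encodes the acute-phase protein pentraxin 3. It gave 16.5 units on wild-type sham, 12.1 on wild-type banded, 11.8 on null sham and 2251.3 on null banded. The cytokine genes Il1b and Il6 were likewise below the floor on the first 3 arrays and reached 1368.5 and 1286 units on the last. Icam1, an adhesion molecule for leukocytes, gave 83.3, 270.9, 74.2 and 1088 units. It was higher by 3.87 on the log2 scale with banding in null and by 1.70 in wild type. In wild type the largest target differences were Csf1, a macrophage growth factor, at least 2.53 higher on the log2 scale, and Irf1, an interferon-regulatory factor, higher by 2.51. Their values in null were 0.68 and 1.57. Csf1 and Irf1 were lowest in wild-type sham, at 10.5 and 117.8 units, and so was Rela.

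**Figure D3:**
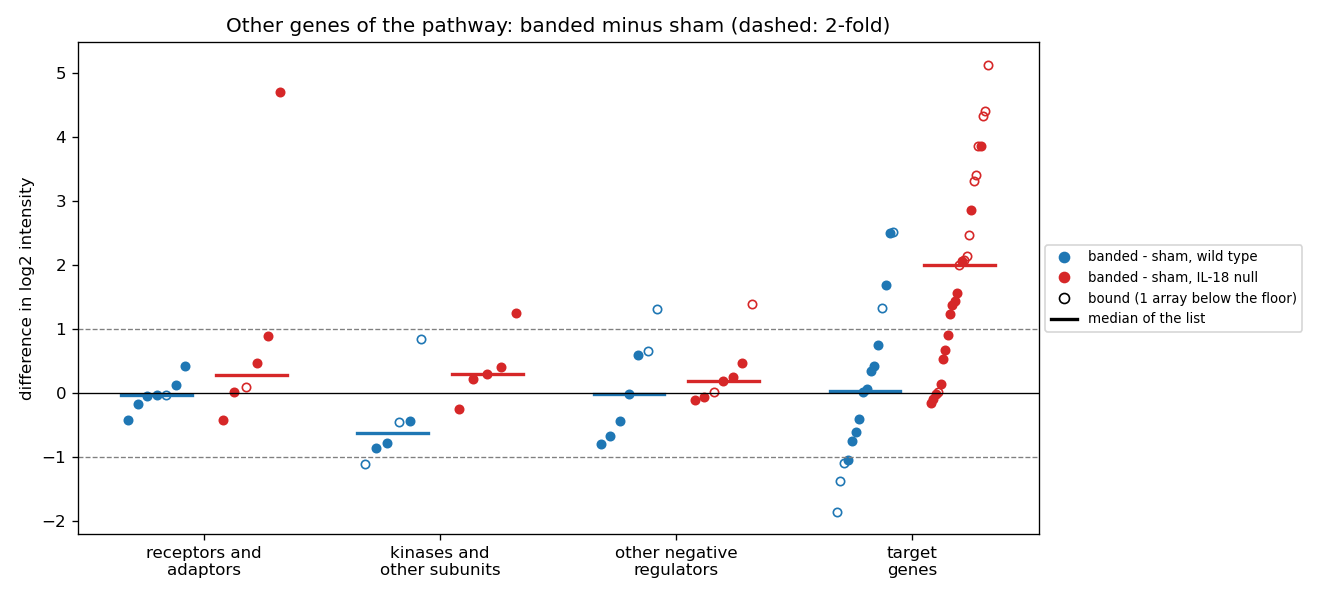
Difference in log2 intensity, banded minus sham, for each measured gene of 4 lists in wild type (blue) and null (red); open points are bounds, thick bars are list medians and dashed lines mark 2-fold. Target genes reach 5.14 in null (Ptx3, a bound), with a list median of 2.01 there, bounds included, and 0.04 in wild type.

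The signalling lists had 1 call each for banding in null, out of 6, 5 and 7 genes with a value, beside 9.51% of all genes called either way. Of 24 receptor and adaptor genes listed, 6 had a value there, and the call was Cd14, the co-receptor for bacterial lipopolysaccharide. It gave 73.3, 71.9, 72 and 1885.6 units from wild-type sham to null banded, and was higher by 4.71 on the log2 scale. Il1r1, the IL-1 receptor gene, was at 0.90, Ltbr at 0.48 and Irak1 at -0.41. In wild type 0 of 7 were called, beside 34.6% of all genes called either way, with Tnfrsf1a at 0.44 and Il1r1 at -0.41. Both IL-18 receptor genes (Il18r1 and Il18rap), Myd88 and Tlr2 were below the floor on every array.

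Of the other kinases and subunits, 5 had a value for banding in null, and Bcl10, an adaptor upstream of the kinase complex, was higher by 1.26. Ikbkg, the regulatory subunit of that complex, was at 0.41, Map3k7 at 0.30 and Tbk1 at -0.24. In wild type 1 of 6 was called, beside 34.6% of all genes. This was Tab3, which was lower by at least 1.10 on the log2 scale, while Bcl10 was higher by at least 0.86. Of the other negative regulators, 1 of 7 was called in each genotype, beside 9.51% of all genes in null and 34.6% in wild type. Tnip1, a partner of A20, was higher by at least 1.40 with banding in null, where Nkiras1 was at 0.47, Itch at 0.25 and Commd1 at 0.19. Nkiras2 was higher by at least 1.32 in wild type, where Rnf11 was at -0.79.

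Markers of other cell types and of the early stress response were read on the same arrays. Of 14 macrophage markers, 6 of 11 with a value were higher with banding in null, beside 6.98% of all genes. In wild type 5 of 11 were higher, beside 21.7% of all genes, and 0 were lower in either genotype. The wild-type calls of C1qa, C1qc and Fcgr3 are bounds. These genes lay under the floor in wild-type sham (6.6, 36.6 and 60.4 units), so they could only be higher. The calls that were not bounds were C1qb at 1.10 and Lyz2 at 1.62 on the log2 scale. In null no call of this list was a bound. The summed intensity of the macrophage list was 5415.7 on wild-type sham, 7580.2 on wild-type banded, 4778.4 on null sham and 11957.8 on null banded. Fcgr1 and Cd163 were below the floor throughout. Of 10 neutrophil markers on the array 7, among them the defining Mpo and Elane, were below the floor on all arrays, and the list's sum was 1338.5, 334.1, 828 and 1266.5. Like Nfkbiz, that sum was highest on the wild-type sham and null banded arrays. The sum rests on 3 measured markers. S100a9 and S100a8, calcium-binding proteins of neutrophils and monocytes, gave 679.8, 58.7, 368.6 and 712.4 units and 203.4, 11.1, 118.8 and 269 units, with the same arrays high. The chemokine receptor gene Cxcr2 gave 384.3, 205.4, 277.1 and 221.2 units and was not high on null banded.

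Immediate-early genes, which respond within minutes to stress and handling, were lower with banding in wild type in 6 of 15 cases and higher in 0, beside 12.8% of all genes lower. In null 3 of 17 were higher and 4 lower, beside 6.98% and 2.53% of all genes, and the list's sum was 24829.8, 7463.3, 18427.8 and 16506.1. Fos gave 9347.3, 28.7, 4468.7 and 1632.4 units, lower with banding in both genotypes, and Jun gave 328.6, 462.8, 507.9 and 205.7. Egr2 stood at -3.15 in wild type and at 0.23 in null. Ier5 was higher by 2.81 in null and Atf3 by 2.49. Wild-type banded had the lowest sum of this list, and null sham had the second highest. The sum is weighted towards bright genes such as Fos. Of 12 lymphocyte markers on the array 9 were below the floor throughout, and the list's sum lay between 281.7 and 436.2. Fibroblast markers summed to 9894.5, 23942.5, 13213 and 30133.4, higher on both banded arrays, and endothelial markers to 3021.7, 6112.3, 4430.8 and 3528.7, highest on wild-type banded. Smooth muscle and pericyte markers summed to between 9886.6 and 12104.5. The part of these cell types and of the early response in the members' values was not tested.

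The genes whose profile over the 4 arrays lay nearest to that of Nfkbiz, out of 4510 that reached the floor on at least 3 arrays, were Atf3, Gadd45b, Klf10, Errfi1 and Adamts1. The measure was the Euclidean distance of log2 values centred on each gene's mean, and it was 1.26, 1.34, 1.60, 1.60 and 1.62. Atf3, a stress-induced transcription factor, gave 327.7, 66.8, 128 and 720.1 units, with wild-type sham and null banded high, as for Nfkbiz. With floored values, all 5 had smaller banding differences than Nfkbiz in both genotypes. In null they ran from 1.94 (Errfi1) to 2.87 (Gadd45b). In wild type they ran from -1.27 (Adamts1) to -2.29 (Atf3), leaving Gadd45b aside. Gadd45b was below the floor in wild-type banded, so its difference there is a bound, lower by at least 1.85. For the brightest Nfkbia probe set the nearest were Bace1, Hnrnpf, Parp9, Fndc3a and Dmxl1, at distances from 0.09 to 0.13. The distance is not scaled to the spread of a profile, so distances are not compared between Nfkbiz and Nfkbia.

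**Figure D4:**
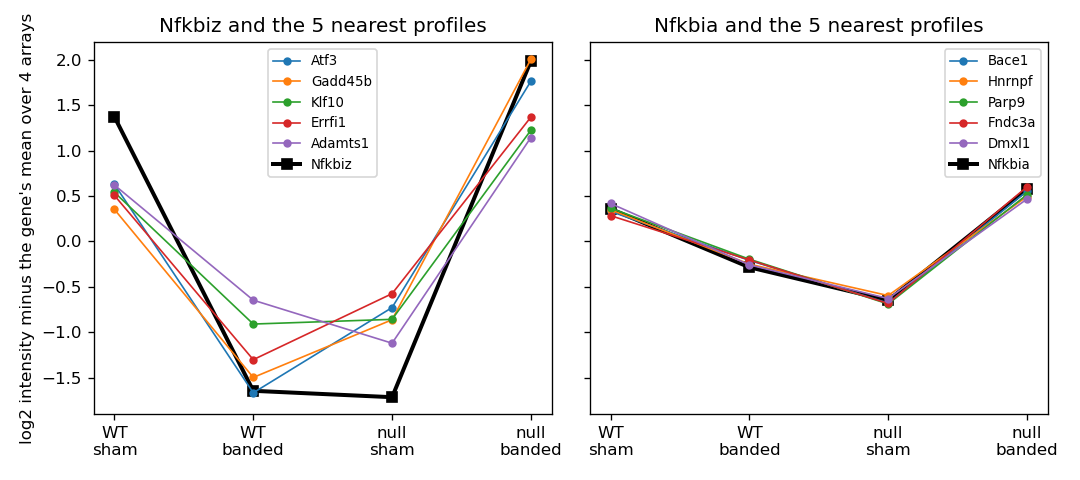
Log2 intensity minus each gene's mean over the 4 arrays, for Nfkbiz (left) and Nfkbia (right, brightest probe set), in black, and the 5 genes nearest to each by Euclidean distance; each point is 1 array and lines only guide the eye. The neighbours of Nfkbiz lie 1.26 to 1.62 away and those of Nfkbia 0.09 to 0.13.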

How the data were processed

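Biotin-labelled total RNA from 4 pools was measured on 1 array each. The deposited values are intensities on a linear scale, 1 value per probe set with 1 decimal, from 1.5 to 43811.1; the authors' tool was GCRMA according to the submitters' processing notes, with no version or settings stated there. The number of arrays limits the precision.

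Groups came from the sample titles. Of 22690 probe sets, 20380 carried 1 gene in the platform annotation; 691 with several, 1555 with none and 64 controls were left out. A gene was represented by its probe set with the highest mean log2 value. Values below log2 6 were set to that floor, and differences of at least 2-fold were counted, with no test. Fixed named genes were all members, the pathway genes with the largest banding differences (up to 4 per list in IL-18 null and 2 in wild type), Il18, control probe sets, and the 5 nearest profiles of Nfkbiz and Nfkbia. The members, lists and alternatives were chosen with earlier results of these data known. The counting was tested on simulated data. Quantile normalization and cyclic loess used limma 3.58.1 in R 4.3.3, and the rest pandas 2.3.3 in Python 3.11.15.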

Additional observations from a re-analysis of the deposited data

Results flagged for a closer look

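The banding response of Nfkbiz ran in opposite directions in the genotypes, and the difference, IL-18 null minus wild type, was 6.72 on the log2 scale. The same difference was 1.86 for Nfkbia on its brightest probe set and 1.25 for Ikbkb, each below 0 in wild type and above 0 in IL-18 null. With 1 array a group these differences were not tested.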

How the results depend on the processing

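Counts of called members stayed within 1.5 times in 34 of 45 cases. With the mean of all probe sets, which pulls in probe sets without signal, the count was 1 for banding in wild type, 1 for banding in IL-18 null, 2 for genotype in sham and 2 for the difference of responses. Of all genes 32.7%, 8.0%, 21.0% and 38.5% were called in these comparisons with that setting. Leaving out probe sets whose names end in _s_at, _x_at or _a_at gave 1 for banding in wild type, beside 35.3% of all genes. Among the measured members this drops Rela and Nfkbib. A 1.5-fold threshold gave 4 for banding in wild type (56.3% of all genes) and 3 for genotype in banded (31.0%). Cyclic loess gave 2 for genotype in sham (22.0% of all genes), where Nfkbia (-0.95) and Ikbkb (-0.99) fell just under 2-fold. For genotype in banded, floor log2 5 and no floor each gave 2 (Bcl3 added), beside 14.2% and 16.3% of all genes. Using only probe sets with an accession also gave 2 (Nfkbia added), beside 13.6% of all genes, an alternative chosen after seeing the data. With that alternative the Nfkbia sham difference turned to 0.066. Of the 204 single differences 186 kept their side of 2-fold and their sign where called, 9 passed it, 8 fell below it and 1 reversed. Quantile normalization took Ikbkb in wild-type banding to -1.10. The Nfkbiz banding difference stayed between -3.42 and -2.55 in wild type under every alternative that measured it; in IL-18 null it was 0.005 with the mean of all probe sets. No paired analysis was possible because each group has 1 array. Signal near the floor limits Bcl3, Relb, Nfkb2, Tnfaip3 and, in wild-type sham, Rela.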

Other observations

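In some targets the arrays that were high for Nfkbiz, wild-type sham and null banded, were high too; these genes were singled out after their values were seen. Ptgs2, which encodes the inducible cyclooxygenase, gave 165.8 units on the wild-type sham array, 21.3 on wild-type banded, 27.6 on null sham and 357 on null banded. Wild-type sham and null banded were high, and the others were below the floor. Birc3, which encodes an inhibitor of cell death, gave 215.6, 129.3, 143.8 and 389.6, a narrower range with the same arrays high. Cxcl1, a neutrophil chemokine, differed from these: it gave 60.7, 161.7, 533 and 1005.9 units, and both null arrays were high. Sod2, the mitochondrial superoxide dismutase, is a known target but lay between 8966.5 and 10359.3 units on all 4 arrays.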
